A study of Mus musculus with 2 samples.

Results

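The genes that carry heme synthesis through to heme A were followed in single-nucleus RNA libraries of regenerating mouse liver. The set was chosen by symbol and holds 9 of the 32286 genes counted, and all 9 had at least 20 UMIs over the hepatocyte-like nuclei. UMIs (unique molecular identifiers) each mark 1 captured transcript. Alas1, Alad, Uros, Urod, Cpox, Ppox and Fech make heme, and Cox10 and Cox15 turn it into heme O and heme A.

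The series compared 1 Cox10-/- library with 1 wild-type library. Per the labels, all mice had a conditional (floxed) Cox10 allele and received AAV8-Cre or AAV8-GFP, and 4 weeks later 70% of the liver was removed. AAV8, an adeno-associated virus, infects mainly hepatocytes in mouse liver. The labels do not say which virus each animal got, nor the promoter of the virus, the floxed exon or the age of the mice. The protocol puts dissection at 4 days after surgery and the characteristics give 4 weeks, so how far regrowth had gone is open to doubt. There was 1 library per genotype. Every comparison therefore describes 2 libraries, no test of genotype was possible, and each range in parentheses is a 95% interval for counting error alone.

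Heme synthesis begins and ends in the mitochondrion and runs through the cytosol in between. The erythroid lineage and the liver are its main sites, and in the liver much of the heme goes to cytochrome P450 enzymes. ALAS1 joins glycine and succinyl-CoA to 5-aminolevulinate, is the rate-limiting enzyme of the liver pathway and is repressed by heme. ALAD makes porphobilinogen, UROS and UROD make and decarboxylate uroporphyrinogen, CPOX and PPOX oxidise the product to protoporphyrin, and FECH inserts the iron. COX10 adds a farnesyl group to give heme O, and COX15 oxidises heme O to heme A, which is bound only by cytochrome c oxidase (respiratory complex IV).

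RefSeq promoter windows (GRCm38.p6, 250 bases before to 50 after an annotated start) were matched for 8 of the 9 genes, all except Fech. Windows of Alas1 and Cox10 are printed 5′ to 3′ because these are the gene of the first step, which differed most between cell types, and the gene targeted in the study. Alas1 lies on the minus strand and has 2 windows, of which the first, chr9:106247905-106248204, is printed. Capitals mark 2 overlapping matches, 1 on each strand, to CGCATGC, a core of the binding sequence of nuclear respiratory factor 1. The first match begins 30 bases after the annotated start of this window. The second Alas1 window, chr9:106247681-106247980, also holds 2 matches, the first of them 194 bases before its own start. The Cox10 window is chr11:64079423-64079722, also on the minus strand. Capitals mark AAGATGG, a core of the YY1 binding sequence, which begins 21 bases after the start.
Alas1: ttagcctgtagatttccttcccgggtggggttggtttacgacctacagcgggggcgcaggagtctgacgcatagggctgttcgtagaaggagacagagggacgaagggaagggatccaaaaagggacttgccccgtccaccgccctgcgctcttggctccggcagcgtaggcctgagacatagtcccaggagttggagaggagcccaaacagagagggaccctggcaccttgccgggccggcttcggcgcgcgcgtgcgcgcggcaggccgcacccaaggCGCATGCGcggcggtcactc
Cox10: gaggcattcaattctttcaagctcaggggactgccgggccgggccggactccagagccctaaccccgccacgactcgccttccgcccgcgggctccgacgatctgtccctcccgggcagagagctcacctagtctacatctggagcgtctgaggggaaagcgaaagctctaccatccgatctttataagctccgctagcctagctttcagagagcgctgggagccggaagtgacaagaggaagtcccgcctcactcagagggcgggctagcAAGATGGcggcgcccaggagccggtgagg

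The motifs were picked by hand with the sequences in view and searched on both strands. CGCATGC was in a window of 1 of the 8 genes, Alas1, and of 4.01% of 27025 genes. AAGATGG was in Cox10 alone of the 8, against 7.28% of genes, and TATAAA likewise, against 15.7%. The SP1 motif GGGCGG was in 7 of the 8, all except Cpox, against 38.2% of genes. The E-box CACGTG was in Alad, Uros and Urod, against 8.09%, and CCAAT in Alad, Urod and Ppox, against 41.1%. TGACGTCA was in 0 of the 8, against 2.03%. A match describes letters in a window and shows no binding.

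The Cox10-/- library held 5167 nuclei and 14476400 UMIs (median 2291 per nucleus), and the wild-type library 5448 nuclei and 17703804 UMIs (median 2853.5). Nuclei with at most 10% mitochondrially encoded UMIs were kept, 60.5% and 28.3%. Hepatocyte-like nuclei, named from marker genes, were 1158 of 3128 kept nuclei in the Cox10-/- library and 1499 of 1542 in the wild-type library. In the Cox10-/- library 573 nuclei were endothelial-like, 617 stellate-like and 297 myeloid-like, while named classes other than hepatocytes held 14 wild-type nuclei. Hepatocyte RNA was found in all classes: Alb, the albumin gene, stood at 16197 CPM (UMIs relative to the depth of the summed nuclei) in hepatocyte-like and 13857 CPM in the other named nuclei of the Cox10-/- library. Cps1, a urea cycle gene, stood at 9743 and 1568 CPM in the same nuclei. Among the Cox10-/- hepatocyte-like nuclei, 439 formed a shallow cluster (median 1121 UMIs, Alb at 38852 CPM), and the other 719 had a median of 4297 UMIs. All 12 hepatocyte markers were detected in hepatocyte-like nuclei of both libraries. Stellate markers there summed to 196 CPM in the Cox10-/- and 40.1 CPM in the wild-type library (11 and 10 of 11 detected, Col1a1 at 0 in wild-type nuclei), and sinusoidal endothelial markers to 66.6 and 28.4 CPM (10 of 10 in both). Kupffer cell markers summed to 64.2 CPM in the Cox10-/- and 5.07 CPM in the wild-type library (8 of 8 in both), the largest ratio between the libraries of these lists. Cholangiocyte markers summed to 157 and 52.8 CPM (6 and 4 of 8, Krt7 and Cftr at 0 in both) and vascular endothelial markers to 17.9 and 5.07 CPM (8 and 7 of 10, Vwf and Wnt2 at 0 in both). The lists for monocytes and neutrophils, dendritic cells, lymphocytes and mesothelium summed to at most 5.57 CPM each in either library. The part of these markers in the results was not tested. The shallow cluster touches many values here, so results are also given without it.

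In hepatocyte-like nuclei the pathway did not move as a block. Of the 9 genes, 2 (Alad and Urod) were higher by 1.5-fold or more in the Cox10-/- library, 2 (Cpox and Cox15) were lower by as much, and 5 lay between. Over all 11423 genes with at least 20 UMIs, 18.8% were that much higher and 14.7% that much lower, so the counts of 2 in each direction are near the background. The counts were the same without the shallow cluster, where 15.2% of all genes were higher and 13.7% lower. With all deposited nuclei they were 2 higher and 0 lower, against 19.8% and 15.6%. The median log2 ratio of the 9 genes was -0.22, against -0.04 over all genes.

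Alas1, the first step, had the most UMIs of the set. It stood at 802 CPM (775 to 829, 3309 UMIs) in hepatocyte-like nuclei of the Cox10-/- library and 959 CPM (936 to 982, 6809 UMIs) in those of the wild-type library, a ratio of 0.836 (0.802 to 0.872). In the deeper nuclei alone the Cox10-/- level was 867 CPM (837 to 898) and the ratio 0.905 (0.867 to 0.944). The ratio stayed below 1 in all 13 other settings tried, between 0.67 and 0.905, and never reached 1.5-fold.

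Alad, the second step, was higher. It stood at 41.4 CPM (35.5 to 48.1, 171 UMIs) in Cox10-/- and 21.1 CPM (17.9 to 24.8, 150 UMIs) in wild-type nuclei, a ratio of 1.96 (1.57 to 2.46). The ratio was 1.63 (1.27 to 2.08) without the shallow cluster, and it was above 1.5 in all 13 settings. In the Cox10-/- library the Alad level was 46.6 CPM in endothelial-like, 37.8 CPM in stellate-like and 41.5 CPM in myeloid-like nuclei. Its level in hepatocyte-like nuclei did not differ from that in the other named nuclei beyond counting error (ratio 1.0, 0.806 to 1.24). The hepatocyte-like level joins 34.4 CPM (28.6 to 41.0) in the deeper and 89.6 CPM (65.9 to 119) in the shallow nuclei.

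Urod, a cytosolic decarboxylase, had the largest ratio of the set on few UMIs. It stood at 12.1 CPM (8.99 to 16.0, 50 UMIs) in Cox10-/- and 4.65 CPM (3.20 to 6.52, 33 UMIs) in wild-type nuclei, a ratio of 2.61 (1.65 to 4.18) and of 2.15 (1.30 to 3.56) without the shallow cluster. Thinned to 1000 UMIs per nucleus the ratio was 5.37, with 20 Urod UMIs in Cox10-/- and 5 in wild-type nuclei, too few to show that its size changed. Uros, the step before it, did not differ beyond counting error, with 18.2 CPM (14.3 to 22.8) in Cox10-/- and 21.1 CPM (17.9 to 24.8) in wild-type nuclei (ratio 0.860, 0.643 to 1.14). Thinned, the Uros ratio was 0.576, on 10 UMIs in the deeper and 2 in the shallow Cox10-/- nuclei, too few to show that its size changed.

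Cpox, which makes protoporphyrinogen, was lower. It stood at 40.7 CPM (34.8 to 47.3, 168 UMIs) in Cox10-/- and 66.0 CPM (60.2 to 72.3, 469 UMIs) in wild-type nuclei, a ratio of 0.616 (0.514 to 0.737). Over the deeper nuclei alone it was 0.563 (0.461 to 0.684). Cpox was no longer past 1.5-fold with all deposited nuclei (0.699, 0.602 to 0.809), thinned to 1000 UMIs (0.914) or averaged over nuclei (0.752). Ppox, the next oxidase, stood at 11.1 CPM (8.16 to 14.9) in Cox10-/- and 15.5 CPM (12.7 to 18.7) in wild-type nuclei (ratio 0.720, 0.499 to 1.02). Its ratio was past 1.5-fold lower after thinning, at 0.484, and in the mean over nuclei. The thinned value rests on 7 UMIs in the deeper and 2 in the shallow Cox10-/- nuclei, too few to show that its size changed.

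Fech, the last step of heme itself, was close in both libraries: 124 CPM (113 to 135, 510 UMIs) in Cox10-/- and 112 CPM (104 to 120, 796 UMIs) in wild-type nuclei, a ratio of 1.10 (0.985 to 1.23). Its ratio stayed between 1.02 and 1.17 in 13 other settings.

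Of the heme A steps, Cox15 had the fewest UMIs of the whole set. Cox10, the targeted gene, stood at 43.4 CPM (37.2 to 50.2, 179 UMIs) in Cox10-/- and 35.6 CPM (31.4 to 40.3, 253 UMIs) in wild-type nuclei, a ratio of 1.22 (1.0 to 1.48). It was 1.34 (1.10 to 1.63) without the shallow cluster, whose own Cox10 level rested on 7 UMIs. The ratio fell below 1 when nuclei counted alike, at 0.774 after thinning and 0.893 in the mean over nuclei, both without an interval. The thinned value rests on 29 Cox10 UMIs in the deeper and 5 in the shallow Cox10-/- nuclei, too few to show that the direction changed. The transcript was thus not lower in the Cox10-/- library as summed, but the labels do not name the deleted part and a 3′ tag outside it would not show a deletion, so these counts check nothing about it. Cox15 stood at 3.39 CPM (1.85 to 5.69, 14 UMIs) in Cox10-/- and 5.49 CPM (3.90 to 7.51, 39 UMIs) in wild-type nuclei. Its ratio of 0.618 (0.310 to 1.16) was past 1.5-fold, yet the interval held 1.

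**Figure D1:**
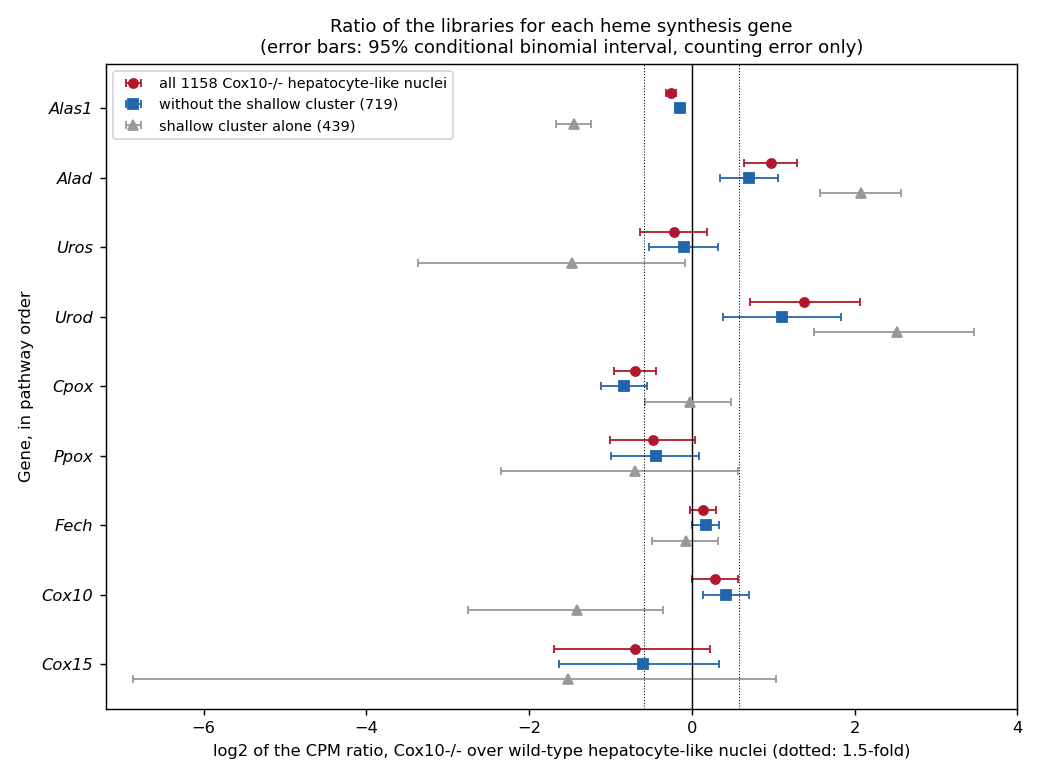
Log2 ratio of CPM, Cox10-/- over wild-type hepatocyte-like nuclei, for the 9 genes in pathway order, with 95% intervals. Circles use all 1158 Cox10-/- nuclei, squares the 719 outside the shallow cluster and triangles the 439 shallow nuclei, all set against the same 1499 wild-type nuclei. Alad and Urod lie to the right and Cpox to the left in circles and squares, while Alas1 lies at ratios of 0.836, 0.905 and 0.366 in the 3 sets.

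The shallow cluster differed from the deeper Cox10-/- nuclei in some genes of the set and not in others. Alas1 was at 351 CPM (302 to 405) there, against 867 CPM in the deeper Cox10-/- nuclei, a deeper over shallow ratio of 2.47 (2.13 to 2.88). Cox10 differed the same way, at 47.7 CPM in deeper and 13.3 CPM in shallow nuclei, a ratio of 3.58 (1.70 to 9.03). Alad went the other way, at 34.4 CPM in deeper and 89.6 CPM in shallow nuclei, as did Urod at 9.99 and 26.7 CPM and Cpox at 37.2 and 64.8 CPM. Fech at 126 and 107 CPM, Uros at 19.7 and 7.63 CPM, Ppox at 11.4 and 9.53 CPM and Cox15 at 3.61 and 1.91 CPM had overlapping intervals. The share of all genes that differed between these nuclei is not given here. Median mitochondrially encoded UMIs were 3.52% in the deeper and 8.45% in the shallow nuclei, Alb was at 12899 and 38852 CPM, and Apob at 1443 and 3194 CPM. The part of depth, mitochondrial share and free RNA in these differences was not tested.

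Between bins of mitochondrial share, over all deposited hepatocyte-like nuclei, the Alas1 ratio of Cox10-/- over wild-type was 0.874 up to 5%, 0.634 from 5 to 10%, 0.524 from 10 to 15% and 0.746 from 15 to 20%. Alad was higher in the Cox10-/- library in each bin, by 1.76 (0.956 to 3.53), 3.18 (2.39 to 4.22), 3.63 (2.68 to 4.89) and 2.61 (1.64 to 4.02). The Cpox ratios were 0.510 (0.356 to 0.741), 0.894 (0.684 to 1.15), 1.11 (0.782 to 1.54) and 0.469 (0.246 to 0.817). Cox10 was at 1.23 (0.812 to 1.94), 0.928 (0.643 to 1.31), 0.584 (0.328 to 0.968) and 0.873 (0.406 to 1.68). Urod was higher in the first 3 bins, at 6.47 (1.07 to 265, on 27 and 1 UMIs), 3.87 (2.16 to 6.82) and 2.87 (1.36 to 5.65), and at 0.652 (0.0749 to 2.60, on 2 and 26 UMIs) in the last. Uros and Ppox were below 1 and Fech above 1 in all 4 bins, each with an interval that held 1 in every bin. Cox15, on 1 to 8 Cox10-/- UMIs per bin, was at 0.319, 0.978, 1.27 and 0.368, each with an interval that held 1. The ratios of Alas1, Alad, Uros, Ppox and Fech thus stayed on 1 side of 1 over the bins, and those of Urod, Cpox, Cox10 and Cox15 did not. No gene had intervals clear of 1 on both sides, so no change of direction went beyond counting error.

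The share of nuclei with a UMI showed how thinly most of the pathway was sampled. Alas1 was seen in 67.6% of Cox10-/- hepatocyte-like nuclei (64.8 to 70.3) and 93.3% of wild-type ones (91.9 to 94.5), with a median of 1 and 4 UMIs and a maximum of 27 and 23. In the deeper Cox10-/- nuclei the Alas1 median was 3. Thinned to 1000 UMIs, which left out 43 Cox10-/- nuclei and 1 wild-type nucleus, the Alas1 shares were 44.6% (41.6 to 47.5) and 56.5% (54.0 to 59.1). In the other classes of the Cox10-/- library the thinned Alas1 shares were 8.03% in endothelial-like, 9.72% in stellate-like and 11.0% in myeloid-like nuclei. Their median depths before thinning were 2482, 2672 and 2675 UMIs. The hepatocyte-like median of 2637 joins shallow nuclei at 1121 and deeper nuclei at 4297, so it does not show matched depth. Alad had thinned shares of 5.56% (4.29 to 7.07) in Cox10-/- and 2.14% (1.47 to 3.0) in wild-type nuclei, and Urod 1.79% (1.10 to 2.76) and 0.334% (0.108 to 0.777). The share of all genes whose thinned shares lie as far apart is not given here, so these genes are not set apart from others. After thinning, 2 of the 9 genes (Alad and Urod) were at least 1.5-fold higher in CPM and 2 lower. Over all genes 24.3% were that much higher and 23.2% lower, so these counts are near the background. Cpox at 12.95% against 25.8% unthinned came to 5.83% (4.53 to 7.37) and 6.41% (5.22 to 7.77) thinned. Fech was at 10.3% in Cox10-/- and 10.2% in wild-type nuclei after thinning, and at 6.81 to 7.88% in the other Cox10-/- classes. Cox10 came to 2.87% (1.97 to 4.03) and 3.94% (3.01 to 5.05), and Cox15 to 0.359% and 0.467%. In the other Cox10-/- classes the thinned shares were 2.4 to 3.84% for Cox10 and 3.42 to 5.06% for Alad, which overlap those of the Cox10-/- hepatocyte-like nuclei. No hepatocyte-like nucleus had a UMI of more than 6 of the 9 genes, and 21.2% of Cox10-/- and 2.67% of wild-type hepatocyte-like nuclei had none.

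**Figure D2:**
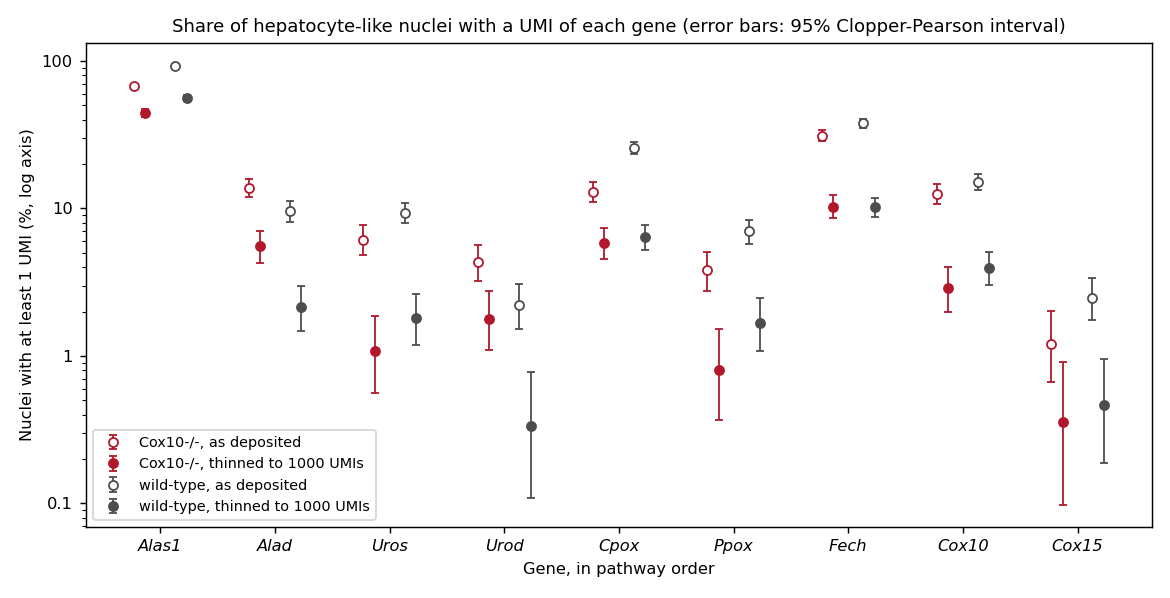
Share of hepatocyte-like nuclei with at least 1 UMI of each gene, on a log axis, for the Cox10-/- (red) and the wild-type (grey) library, with 95% Clopper-Pearson intervals. Open circles use the deposited counts and filled circles counts thinned to 1000 UMIs. Thinned, Alas1 stands at 44.6% and 56.5%, and the Cox10-/- shares of Alad and Urod lie above their wild-type shares. How many of all genes differ as much in share is not given here.

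Levels between genes were compared per kilobase of annotated exon (GENCODE vM21, mm10), although a 3′ count need not scale with length and the use of intronic reads is not given in the sources used here. On that scale Alas1 was at 130 CPM per kilobase in Cox10-/- and 155 in wild-type hepatocyte-like nuclei. In the Cox10-/- library Alad, Cox10, Fech and Cpox followed in this order, and in the wild-type library Cox10, Alad, Cpox and Fech. Alad was at 22.1 and 11.3, Cox10 at 14.3 and 11.7, Fech at 8.93 and 8.10, and Cpox at 6.11 and 9.91. Uros was at 5.08 and 5.91, Urod at 4.68 and 1.79, Ppox at 2.47 and 3.43, and Cox15, the lowest, at 0.691 and 1.12. Alas1 (ENSMUSG00000032786.16) lies at chromosome 9, 106233455 to 106248654, and Cox10 (ENSMUSG00000042148.8) at chromosome 11, 63962627 to 64079468, both on the minus strand of mm10. Cox10 spans 117 kilobases of genome with 3.04 kilobases of exon, and Alas1 15.2 kilobases with 6.17 kilobases of exon. Per kilobase of gene span Cox10 was at 0.371 and 0.305 and Cox15 at 0.172 and 0.278, which leaves Cox15 the lowest in both libraries.

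Within the Cox10-/- library, Alas1 set hepatocytes apart far more than any other gene of the set did. Of the 9 genes, 5 were at least 1.5-fold higher in hepatocyte-like than in the other named nuclei and 1 was that much lower, against 21.4% and 36.1% of 12639 genes. The classes were built from the same counts, so these values describe them and test nothing. Alas1 stood at 802 CPM in hepatocyte-like nuclei and at 87.7 CPM (73.2 to 104) in endothelial-like, 89.5 CPM (75.9 to 105) in stellate-like and 106 CPM (84.7 to 130) in myeloid-like nuclei, which do not differ among themselves beyond counting error. The ratio of hepatocyte-like over other named nuclei was 8.64 (7.78 to 9.63), and 9.35 (8.42 to 10.4) without the shallow cluster. Uros followed at 3.18 (1.99 to 5.27), Ppox at 1.87 (1.13 to 3.18), Cpox at 1.69 (1.32 to 2.19) and Fech at 1.68 (1.46 to 1.94).

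Cox10, Urod and Cox15 differed less between classes. Cox10 was at 43.4 CPM in hepatocyte-like nuclei and at 47.3 CPM (36.8 to 59.8) in endothelial-like, 28.5 CPM (21.1 to 37.6) in stellate-like and 28.5 CPM (18.2 to 42.3) in myeloid-like nuclei, a ratio over all named others of 1.20 (0.961 to 1.5). Without the shallow cluster that ratio was 1.32 (1.06 to 1.65), an interval above 1, and over the stellate-like nuclei alone Cox10 in all hepatocyte-like nuclei was 1.52-fold higher (1.10 to 2.13). Urod was at 12.1 CPM and 10.2 CPM in hepatocyte-like and other named nuclei (1.18, 0.772 to 1.82). Cox15 was at 3.39 and 5.23 CPM (0.648, 0.307 to 1.33), the 1 gene past 1.5-fold lower, with an interval that held 1. With the shallow cluster left out it was between the limits, at 0.690, and 5 genes were still higher and 0 lower, against 21.8% and 39.1% of all genes.

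**Figure D3:**
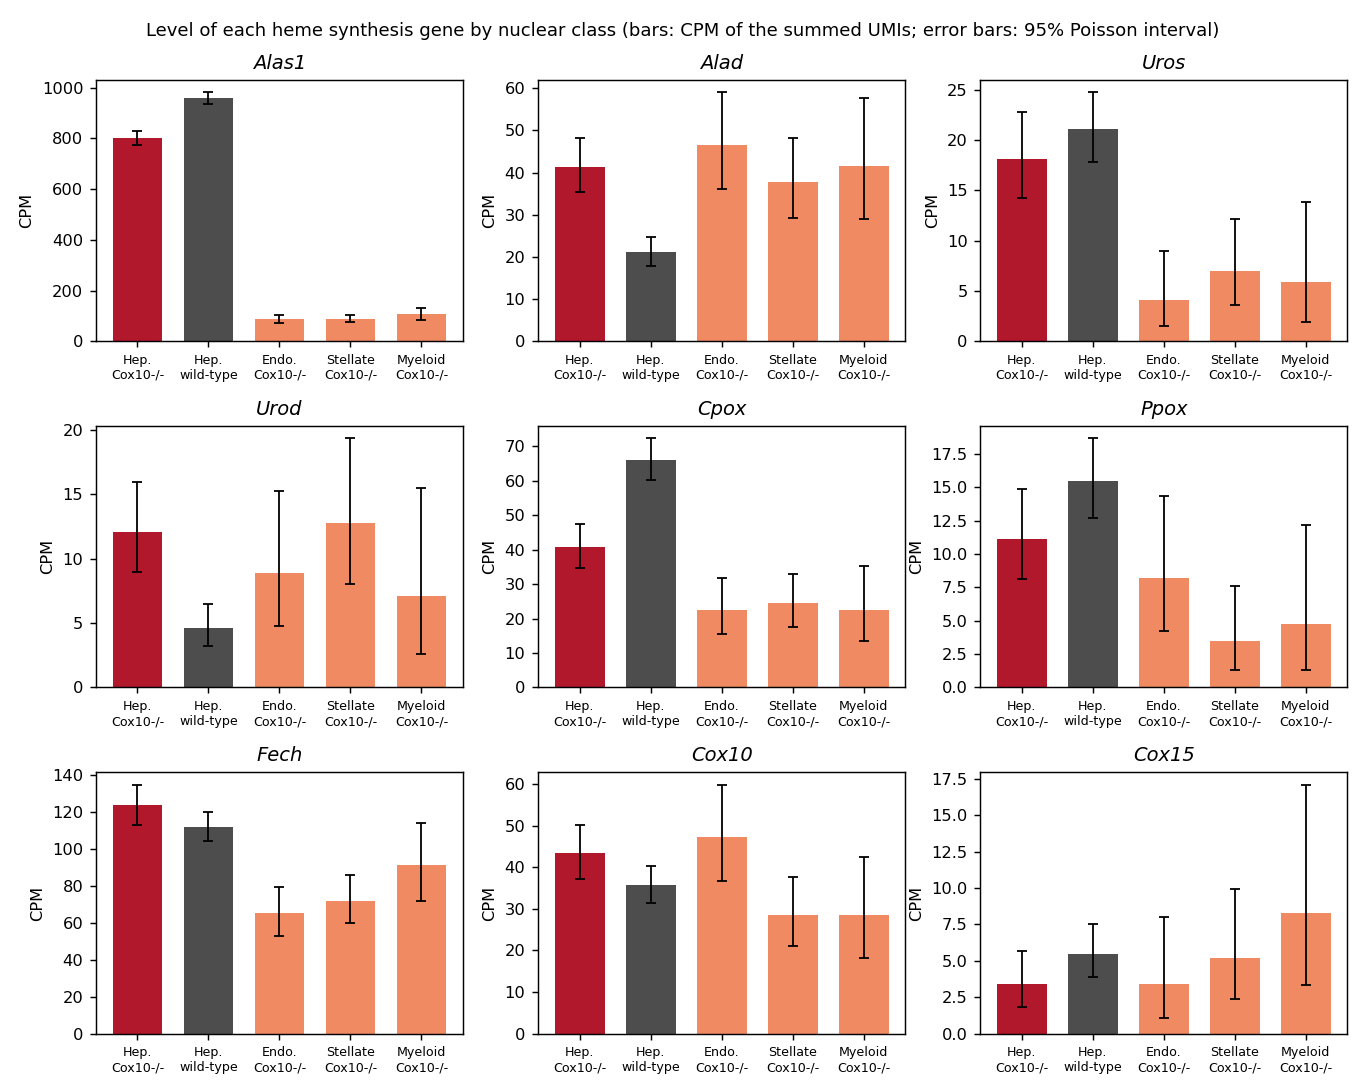
CPM of each gene in hepatocyte-like nuclei of the Cox10-/- (red) and wild-type (grey) libraries and in endothelial-like, stellate-like and myeloid-like nuclei of the Cox10-/- library (orange), with 95% Poisson intervals; each panel has its own scale. Alas1 stands at 802 and 959 CPM in hepatocyte-like nuclei and between 87.7 and 106 CPM in the other classes, whereas Alad lies between 37.8 and 46.6 CPM and Cox10 between 28.5 and 47.3 CPM in the Cox10-/- classes.

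Because hepatocyte RNA is present in every class, each gene was also set against Cps1, counted in the same nuclei. Alas1 had 8.23 UMIs per 100 Cps1 UMIs (7.94 to 8.52) in Cox10-/- hepatocyte-like nuclei and 5.92 (5.33 to 6.55) in the other named nuclei of that library, with 5.60 in endothelial-like, 6.09 in stellate-like and 5.95 in myeloid-like nuclei. In wild-type nuclei it had 10.3 (10.1 to 10.6) in hepatocyte-like nuclei and, over all deposited nuclei, 9.88 (8.56 to 11.3) in the 158 other named nuclei. The last 2 intervals overlapped, and in the Cox10-/- library Alas1 was lower per Cps1 UMI in the other named nuclei than in hepatocyte-like nuclei. Fech did not follow Cps1: it had 1.27 per 100 (1.16 to 1.38) in Cox10-/- hepatocyte-like nuclei and 4.69 (4.17 to 5.25) in the other named nuclei. Cox10 had 0.445 (0.382 to 0.515) and 2.31 (1.95 to 2.71) in the same nuclei, and Alad 0.425 (0.364 to 0.494) and 2.64 (2.26 to 3.07). Cps1 is not the only gauge: Alb had 166 per 100 in hepatocyte-like and 884 in the other named nuclei, so hepatocyte genes did not keep 1 ratio to Cps1. How much of the Alas1, Fech, Cox10 and Alad signal outside hepatocytes is free RNA was not tested.

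**Figure D4:**
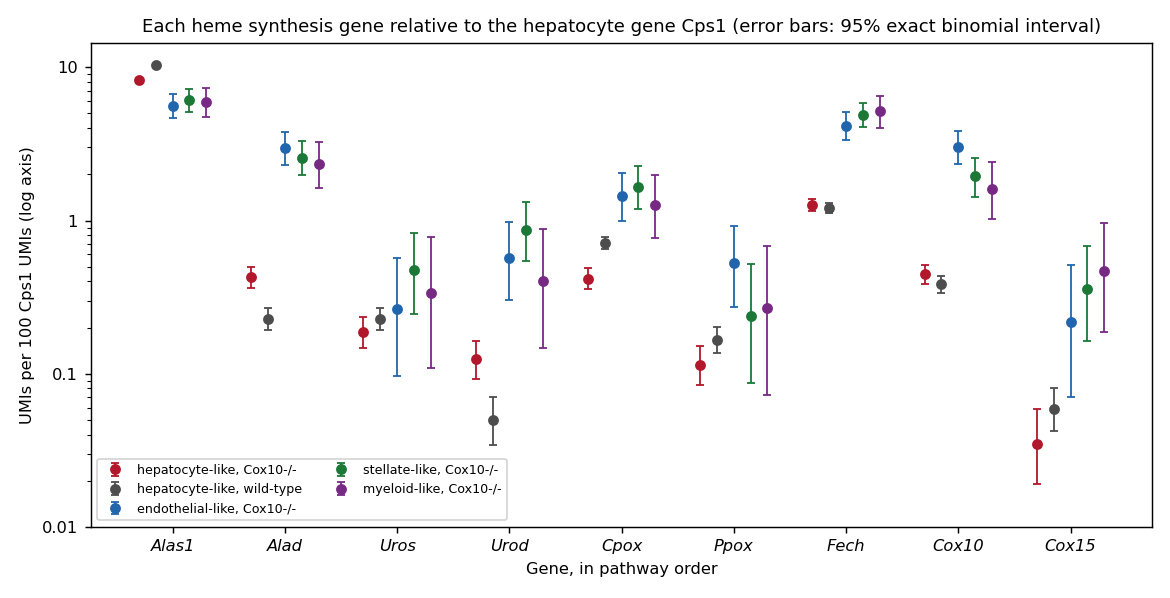
UMIs of each gene per 100 Cps1 UMIs, on a log axis, in 5 sets of nuclei with 95% exact binomial intervals: hepatocyte-like of the Cox10-/- and of the wild-type library, then endothelial-like, stellate-like and myeloid-like of the Cox10-/- library. Alas1 lies between 5.60 and 10.3 in all 5, while Fech lies at 1.27 and 1.20 in hepatocyte-like nuclei and between 4.15 and 5.15 in the others.

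Outside hepatocytes the genotypes could be set side by side only over all deposited nuclei, with 3370 Cox10-/- and 158 wild-type nuclei in the named other classes. Alas1 was at 109.5 CPM (981 UMIs) there in the Cox10-/- library and at 476 CPM (221 UMIs) in the wild-type library, a ratio of 0.230 (0.199 to 0.268), and Cps1 at 1640 and 4816 CPM. Cpox was also lower, at 26.9 CPM (241 UMIs) and 45.2 CPM (21 UMIs), a ratio of 0.595 (0.381 to 0.979), and Alad higher, at 40.5 CPM (363 UMIs) and 21.5 CPM (10 UMIs), a ratio of 1.88 (1.01 to 3.96). In hepatocyte-like nuclei the ratios of Cpox and Alad were 0.699 and 2.14 over all deposited nuclei, and 0.616 and 1.96 over those kept. Fech was at 72.5 and 64.6 CPM (1.12, 0.778 to 1.68) and Cox10 at 32.6 and 28.0 CPM (1.16, 0.670 to 2.21). Urod had a ratio of 2.59 (0.699 to 21.7), Ppox of 0.504 (0.232 to 1.30), Cox15 of 0.713 (0.263 to 2.71) and Uros of 2.70 (0.463 to 109), each on 1 to 7 wild-type UMIs. The intervals of Alas1, Cpox and Alad thus left out 1, those of Cpox and Alad narrowly and on 21 and 10 wild-type UMIs. The share of all genes with such intervals is not given here, so these 3 are not set apart from other genes. Alas1 ran in the direction of Cps1, and the part of free RNA in these ratios was not tested.

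Within hepatocyte-like nuclei, members were followed over terciles of a score of pericentral minus periportal markers, which contains none of the 9 genes. The terciles are ranges of a score and not cell types. Cox10 was lower on the pericentral side in both libraries: 31.2 CPM (21.6 to 43.6) in the pericentral and 50.5 CPM (40.9 to 61.6) in the periportal tercile of the Cox10-/- library, a ratio of 0.619 (0.406 to 0.924), and 26.5 CPM (20.3 to 33.9) and 43.4 CPM (35.4 to 52.8) in wild-type nuclei, a ratio of 0.610 (0.438 to 0.843). Without the shallow cluster the Cox10-/- ratio was 0.678 (0.459 to 0.992). Over all genes, 11.3% in the Cox10-/- and 9.04% in the wild-type library were at least 1.5-fold lower on the pericentral side.

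Cpox ran the other way, and 13.9% of all genes in the Cox10-/- and 6.54% in the wild-type library were at least 1.5-fold higher on the pericentral side. It stood at 51.4 CPM (38.8 to 66.8) in the pericentral and 34.7 CPM (26.8 to 44.1) in the periportal tercile of the Cox10-/- library (1.48, 1.02 to 2.15) and at 78.6 CPM (67.7 to 90.7) and 49.9 CPM (41.2 to 59.8) in wild-type nuclei (1.58, 1.24 to 2.0). Without the shallow cluster the Cox10-/- ratio of Cpox was 1.33 (0.856 to 2.07), an interval that held 1. Alas1 was at 1039 CPM (998 to 1081) pericentral and 903 CPM (865 to 942) periportal in wild-type nuclei, a ratio of 1.15 (1.09 to 1.22). In the Cox10-/- library its ratio was 0.910 (0.836 to 0.990), and 1.09 (1.0 to 1.19) without the shallow cluster. The pericentral tercile of the Cox10-/- library had a median of 1349 UMIs and the periportal tercile 4501, against 4444 and 4339 in the wild-type library.

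**Figure D5:**
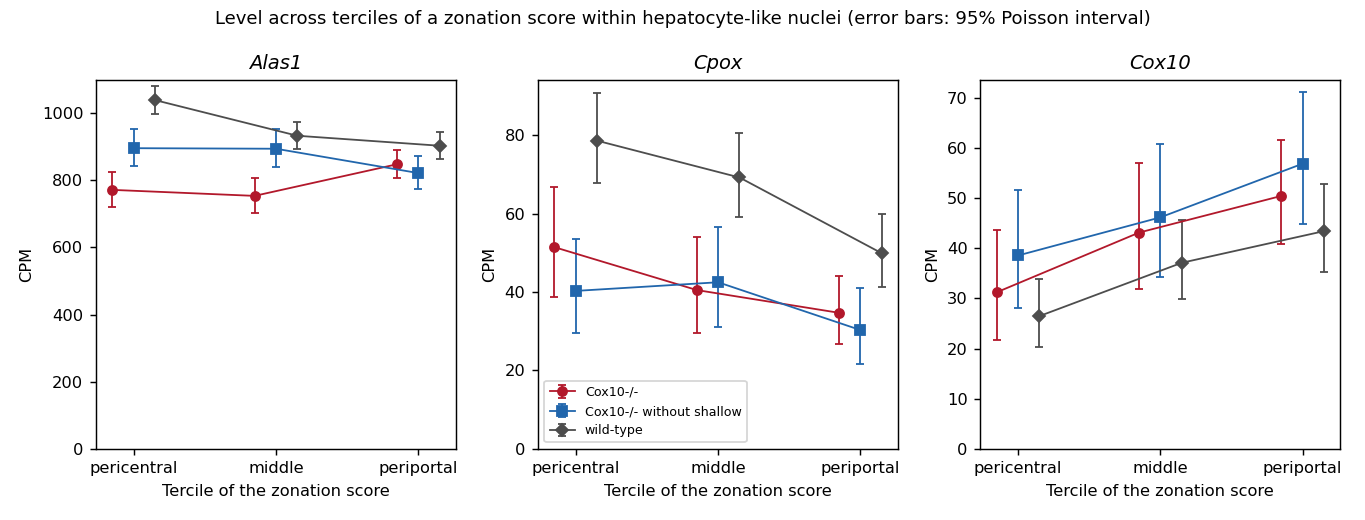
CPM of Alas1, Cpox and Cox10 in the pericentral, middle and periportal tercile of the zonation score, with 95% Poisson intervals, for all Cox10-/- hepatocyte-like nuclei (red circles), those outside the shallow cluster (blue squares) and wild-type nuclei (grey diamonds). Cox10 is lowest in the pericentral tercile of all 3 sets, at 31.2, 38.6 and 26.5 CPM, and Cpox is above its periportal level there, at 51.4, 40.3 and 78.6 CPM.

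Clusters of hepatocyte-like nuclei showed the same spread. The 3 wild-type clusters had Alas1 at 877, 1008 and 1059 CPM, Cpox at 56.1, 68.9 and 83.7 CPM and Cox10 at 40.3, 37.5 and 22.6 CPM. The deeper Cox10-/- clusters, of 640 and 66 nuclei, had Alas1 at 861 CPM (829 to 894) and 929 CPM (834 to 1032), Cpox at 35.1 CPM (28.9 to 42.3) and 53.1 CPM (32.4 to 82.0), and Cox10 at 49.3 CPM (41.9 to 57.7) and 42.5 CPM (24.3 to 69.0). The cluster of 640 was below every wild-type cluster in Cpox and overlapped the wild-type cluster of 744 nuclei in Alas1 and Cox10.

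Alas2, the erythroid form of the first enzyme, was sparse. It was at 5.33 CPM (22 UMIs) in Cox10-/- and 6.62 CPM (47 UMIs) in wild-type nuclei of the hepatocyte-like class, a ratio of 0.806 (0.462 to 1.36). The 8 erythroid markers summed to 1.45 and 1.13 CPM in these nuclei, with 5 and 7 of them at 0.

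Genes around the pathway were mostly between the limits, and the counts of each list stand against the 18.8% of all genes that were higher and the 14.7% that were lower. Among 15 measured genes of heme A use and of copper and heme insertion into complex IV, 3 were at least 1.5-fold higher and 0 lower, near those shares, with a median log2 ratio of 0.29. They were Coa3, a complex IV assembly factor (ratio 3.07, 1.90 to 5.07), Coa6 (2.15, 1.32 to 3.54) and the copper chaperone Cox17 (1.99, 1.38 to 2.88). Without the shallow cluster Cox17 was at 1.496 (0.987 to 2.25), just under the limit. The list then had 2 higher and 0 lower, against 15.2% and 13.7% of all genes. Among 15 genes of porphyrin and heme transport and glycine import, 5 were higher and 1 lower (median 0.36), and without the shallow cluster 4 and 1 (median 0.11), against 15.2% and 13.7% of all genes. The 1 lower gene was Slc25a38, a mitochondrial glycine carrier (0.592, 0.425 to 0.814). Tspo, an outer mitochondrial membrane protein that binds porphyrins, was at 29.6 CPM in Cox10-/- and 6.62 CPM in wild-type nuclei (4.47, 3.17 to 6.40), the mitochondrial carrier gene Slc25a39 at 77.8 and 23.5 CPM (3.31, 2.74 to 4.01), and Pgrmc1, which encodes a heme-binding membrane protein, at 235 and 106 CPM (2.21, 2.01 to 2.44). In the deeper nuclei these ratios were 2.56, 2.47 and 1.57.

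Among 10 genes of heme breakdown and heme binding, 3 were higher and 0 lower (median 0.33), against 18.8% and 14.7% of all genes. Hpx, the plasma heme scavenger hemopexin, was at 1300 CPM in Cox10-/- and 311 CPM in wild-type nuclei (4.18, 3.98 to 4.40), and Hp, the hemoglobin scavenger haptoglobin, at 1108 and 321 CPM (3.46, 3.29 to 3.64). Both are acute phase genes, and without the shallow cluster their ratios were 3.01 and 2.52. Hmox1, which degrades heme, was at 4.12 CPM (17 UMIs) and 0.845 CPM (6 UMIs), a ratio of 4.88 (1.83 to 15.1).

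Of 13 regulators of Alas1 and of its protein's turnover, 3 were higher and 0 lower (median 0.02, near the -0.04 of all genes), against 18.8% and 14.7% of all genes, so the count is near the background too. Ppargc1a, the coactivator PGC-1alpha that induces Alas1 in fasted liver, was at 690 CPM in Cox10-/- and 368 CPM in wild-type nuclei (1.87, 1.78 to 1.98), while Alas1 was at 802 and 959 CPM. Lonp1, a matrix protease, had a ratio of 2.05 (1.57 to 2.68) and Nr0b2, the corepressor SHP, of 1.85 (1.56 to 2.18). Of 15 genes of iron and iron-sulfur supply, 4 were higher and 2 lower (median 0.20), near the 18.8% and 14.7% of all genes, with the ferritin chains Fth1 at 2.72 (2.47 to 2.99) and Ftl1 at 2.13 (1.97 to 2.30) and the glutaredoxin gene Glrx5 at 1.88 (1.49 to 2.39). The lower ones were the iron exporter gene Slc40a1 (0.628, 0.554 to 0.711) and the iron regulatory protein gene Ireb2 (0.627, 0.568 to 0.691).

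Of 19 measured heme protein genes, 6 were higher and 4 lower (median 0.15), and without the shallow cluster 4 and 4 (median 0.04). Over all genes 18.8% were higher and 14.7% lower, and 15.2% and 13.7% without that cluster. The cytochrome P450 gene Cyp2b10 was at 65.9 CPM (272 UMIs) in Cox10-/- and 0.282 CPM (2 UMIs) in wild-type nuclei, a ratio of 234 (64.2 to 1942). Cyp3a11 was at 821 and 44.1 CPM (18.6, 16.6 to 21.0) and Cyp1a2 at 143 and 38.3 CPM (3.73, 3.22 to 4.32). In the deeper nuclei the ratios were 246, 14.2 and 2.89. The lower ones were the bile acid synthesis genes Cyp7a1 (0.354, 0.298 to 0.418) and Cyp8b1 (0.459, 0.315 to 0.654) and the mitochondrially encoded mt-Cytb (0.489, 0.478 to 0.501) and mt-Co1 (0.604, 0.596 to 0.612). The last 2 count toward the mitochondrial share by which nuclei were kept, so the filter enters their ratios. The median share was 5.73% in Cox10-/- and 7.85% in wild-type hepatocyte-like nuclei. Within the Cox10-/- library mt-Co1 was at 6524 CPM in deeper and 15640 CPM in shallow nuclei. The lower genes of these lists were named after their values were seen.

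Across the 7 class-by-library sums of at least 50000 UMIs, Slc39a14 and Dpyd were among the 5 genes most like Alas1 of 4828 ranked, with Pearson r of log2 CPM of 0.999 and 0.995. Slc39a14, a metal transporter gene, was at 747 CPM in Cox10-/- and 966 CPM in wild-type nuclei of the hepatocyte-like class and at 97.3 CPM in Cox10-/- endothelial-like nuclei. The 7 points share libraries and depth, and 2 of them are hepatocyte-like sums, so r mostly contrasts those with the rest. Of the set itself, Cpox had an r of 0.778 with Alas1, Fech of 0.757 and Cox10 of -0.07, and the other 5 genes were under the 500 UMIs needed to be ranked.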

How the data were processed

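Nuclei came from 2 mouse livers, perfused, digested and strained at 70 µm, with 7000 nuclei per sample used for a droplet 3′ kit. Per the submitters' processing notes the authors used Cell Ranger 7.0 on mm10. They deposited raw counts (UMIs of each gene in each nucleus), which they had not normalized. Nuclei held 601 to 3999 genes and under 20% mitochondrially encoded UMIs, so they had been filtered before deposit. The sources used here give neither that filter, nor the annotation, nor whether introns were counted.

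Kept nuclei had at least 500 UMIs, 300 genes and a mitochondrial share of UMIs of 10% or less. Scrublet marked 14 Cox10-/- and 0 wild-type nuclei, which were removed, and these are too few for the caller to be relied on; whether doublets had been removed before deposit is not given in the sources used here. The libraries shared 7 barcodes. With scanpy 1.11.5, counts were scaled to 10000, logged, reduced to 2000 variable genes and 30 principal components and clustered (15 neighbours, Leiden resolution 1.0, seed 1). Clusters were named from marker lists, with thresholds set after the data were seen: a marker excess of at least 2 (log2), 3 detected markers and a leading marker 8-fold up for other classes, and for hepatocytes an excess above 0.3 over those classes and under 0.5 for each other class. Clusters that met neither stayed unnamed (419 Cox10-/- and 29 wild-type nuclei). A hepatocyte-like cluster was called shallow where its median UMI count was under 0.5 of its library's median.

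UMIs were summed per class and library. CPM intervals are exact Poisson, shares Clopper-Pearson and ratios conditional binomial, all at 95%. A call is a ratio of at least 1.5 either way, and genes entered with 20 or more UMIs in the 2 sums together. Median log2 ratios used a prior of 0.5 UMI. Named genes were the 9 members, Alas2, up to 3 genes per list by the interval end nearest to 1, and the 5 most like Alas1; some genes that this rule takes are not reported here. In the list of complex IV genes, Fdx1l was not found by its symbol. The members and lists were chosen with earlier results of these data known. Alternatives covered scaling (TMM from edgeR 4.0.16, DESeq2 1.42.0 size factors, a total without mitochondrially encoded genes), filters, Leiden resolutions of 0.5 and 2.0, thinning and averaging over nuclei.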

Additional observations from a re-analysis of the deposited data

Results flagged for a closer look

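Alas1 differed in direction along the zonation score between the libraries. Its pericentral over periportal ratio was 0.910 (0.836 to 0.990) in the Cox10-/- library and 1.15 (1.09 to 1.22) in the wild-type library, with counting intervals on opposite sides of 1. The difference was not tested, since each genotype is 1 library. Without the shallow cluster the Cox10-/- ratio was 1.09 (1.0 to 1.19), on the same side of 1 as the wild-type ratio.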

How the results depend on the processing

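No paired analysis was possible because each genotype has 1 library. In hepatocyte-like nuclei, the number of genes at least 1.5-fold higher stayed 2 (Alad and Urod) in 11 of 13 alternatives. It was 1 with at least 1000 genes per nucleus and with at least 100 UMIs over both sums, where Urod dropped out. The number at least 1.5-fold lower was 0 with all deposited nuclei. It was 1 (Cpox) with at most 5% mitochondrially encoded UMIs, with at least 1000 genes per nucleus and with at least 100 UMIs. It stayed at 2 in the other 9, although thinning gave Uros and Ppox and averaging over nuclei gave Ppox and Cox15 in place of Cpox and Cox15. Within the Cox10-/- library the higher count ranged from 4 to 6. The lower count, Cox15 alone, was 0 with TMM factors, with DESeq2 size factors, without the shallow cluster and after thinning. Of the called genes, 0 changed direction. The cause of these moves was not tested, except that the stricter filters leave fewer UMIs. With 14 and 39 UMIs of Cox15, and 50 and 33 of Urod, depth limits what either ratio can show. Each genotype is 1 animal and 1 preparation, so genotype, animal and preparation cannot be told apart.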

Other observations

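An unnamed cluster of 90 Cox10-/- nuclei was led by Nrg1, Pdk4 and Areg. It had Alas1 at 261 CPM (215 to 313). That is above the 87.7 CPM of endothelial-like and below the 802 CPM of hepatocyte-like nuclei of the same library. Its Cps1 level was 1869 CPM, near the 1568 CPM of the named other nuclei. Its median depth was 4920 UMIs. Fech in this cluster was at 89.9 CPM (64.2 to 122) and Cox10 at 47.2 CPM (29.2 to 72.1).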
